A study of Mus musculus with 6 samples.

Results

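The 10 activity-induced immediate early genes Arc, Fos, Fosb, Junb, Egr1, Egr3, Nr4a1, Npas4, Ier2 and Dusp1 were followed in the ribosome-associated RNA of mPFC D2 neurons with and without Gsk3b sgRNA. They were chosen by name, and all 10 were found among the 47729 genes of the table, with 23 of its 115220 transcripts. RNA came from adult male C57BL/6 mice that all carried D2Cre, Cre-dependent Flag-Cas9 and RiboTag, a hemagglutinin tag on the ribosomal protein Rpl22. The 3 Ctrl libraries came from mice with AAV GFP and the 3 Gsk3sKO libraries from mice with AAV Gsk3sgRNA/GFP in the mPFC, dissected 3 weeks later. Both groups thus expressed Cas9, and the virus of the Ctrl group carried no guide. Cas9 and the tag depend on a bacterial artificial chromosome transgene that drives Cre in D2 receptor cells. Tagged ribosomes of D2 cells that took up no virus are also in the precipitate.

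Immediate early genes are switched on within minutes of neuronal firing or growth factor signalling without the need for new protein synthesis. Calcium and the ERK kinases activate factors such as CREB and SRF that already sit at their promoters, and the RNAs decay quickly, so their level follows recent activity. Fos, Fosb and Junb encode subunits of the AP-1 transcription factor, Egr1 and Egr3 zinc finger factors, Nr4a1 an orphan nuclear receptor and Npas4 a neuron-specific factor that acts on inhibitory synapses. Arc encodes a capsid-forming protein that promotes the removal of AMPA receptors from synapses, Dusp1 a phosphatase that switches off MAP kinases and Ier2 a small nuclear protein.

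The promoters of these genes are known for sites of CREB, the cAMP response element (CRE). RefSeq promoter windows on GRCm38.p6, from 250 bases before to 50 after the start, were at hand for 6 of the 10 genes, Fos, Fosb, Junb, Nr4a1, Dusp1 and Npas4. The stretches of 4 genes are shown up to the start or to the first annotated exon. Fos and Junb are shown because their levels lay nearest to the average pattern of the 10 genes, Nr4a1 because it had the smallest p and Dusp1 because it holds the only full CRE. Capitals mark the full CRE TGACGTCA, its core TGACG on either strand (CGTCA when read on the other) and TATAAA.

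Fos, chr12:85473640-85473889, plus strand: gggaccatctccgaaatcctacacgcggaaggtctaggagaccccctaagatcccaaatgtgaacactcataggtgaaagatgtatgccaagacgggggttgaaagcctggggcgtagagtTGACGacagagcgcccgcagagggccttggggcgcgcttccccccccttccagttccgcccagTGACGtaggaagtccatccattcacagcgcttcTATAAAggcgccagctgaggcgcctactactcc

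Junb, chr8:84978749-84978998, minus strand: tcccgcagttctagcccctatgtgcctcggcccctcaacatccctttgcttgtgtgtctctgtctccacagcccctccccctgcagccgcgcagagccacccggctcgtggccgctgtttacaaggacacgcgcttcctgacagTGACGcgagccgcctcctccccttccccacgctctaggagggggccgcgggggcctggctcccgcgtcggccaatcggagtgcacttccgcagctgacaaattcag

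Nr4a1, chr15:101266596-101266845, plus strand: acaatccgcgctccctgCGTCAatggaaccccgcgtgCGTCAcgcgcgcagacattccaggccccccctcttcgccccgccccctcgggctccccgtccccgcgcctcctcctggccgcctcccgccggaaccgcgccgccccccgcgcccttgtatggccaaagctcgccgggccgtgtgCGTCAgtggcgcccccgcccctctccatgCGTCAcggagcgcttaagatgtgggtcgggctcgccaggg

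Dusp1, chr17:26508520-26508722, minus strand: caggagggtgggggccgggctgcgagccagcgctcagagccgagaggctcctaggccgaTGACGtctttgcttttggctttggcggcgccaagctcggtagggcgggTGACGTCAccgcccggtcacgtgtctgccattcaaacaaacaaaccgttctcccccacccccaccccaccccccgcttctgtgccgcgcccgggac

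The core TGACG was found on either strand in all 6 windows, at 13 positions, and in 20.8% of the 32851 mouse windows. At least 2 cores lay in 4 of the 6 windows and in 5.01% of all windows. Nr4a1 held 4, Dusp1 3, Fos and Npas4 2 each, and Fosb and Junb 1 each. All 250 bases before the RefSeq start of Npas4 lie in exon 1 of its listed transcript. The 2 Npas4 cores are thus within that transcript and not upstream of it. A full CRE contains the core on both strands, so the 1 in Dusp1, found in 1.79% of all windows, counts as 2 of its 3 cores. The Fos core nearest to the start began 66 bases before it, and a TATAAA, found in 13.6% of all windows, began 33 bases before it. Junb held a TATAAA at the RefSeq start itself, just outside the stretch shown and upstream of the start of the listed Junb transcript. None of the 6 held the CArG box of SRF (1.63% of all windows) or the EGR site GCGTGGGCG (0.612%). Of 59 windows of 40 other rapid activity-induced genes, 32 held the core. A match of letters is not a bound site, and the windows do not reach enhancers or sites farther upstream.

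Before the comparison, the libraries were looked at as a whole. Their depth, estimated from the spacing of low values, ran from about 23.5 to 45.2 M reads, and 13.4% to 19.7% of the low values used lay within 0.01 reads of a whole number, so it is approximate. In Ctrl replicate 3 only 12.6% of the multiples were odd at first, against 50% to 59.2% elsewhere, and its estimate of 23.5 M reads is the value after the unit was corrected for this. At this depth the single Ier2 transcript rests on about 109.7 to 409.7 reads a library and the main Arc transcript on 3095 to 10520, both lowest in Ctrl replicate 3. Gsk3b, the target of the guide, was at 35.6, 53.8 and 56.5 FPKM in the Ctrl libraries and 36.9, 37.0 and 33.6 FPKM in the Gsk3sKO libraries (a log2 fold change of -0.40 with a standard error of 0.19, unadjusted limma p = 0.0648, exact permutation p = 0.3). With 1 library left out it ranged from -0.61 without Ctrl replicate 1 (unadjusted limma p of 0.00279) to -0.28 without Ctrl replicate 3 (0.207). For the protein, the paper reported by immunostaining that most mPFC neurons with both Flag-Cas9 and the guide virus lacked GSK3β. That was seen in D2Cre and Flag-Cas9 mice without RiboTag. The RNA level given here does not measure the protein. Drd2, the gene of the D2 receptor, was at 1.58, 6.02 and 14.1 FPKM in the Ctrl libraries and 8.32, 5.96 and 7.28 FPKM in the Gsk3sKO libraries. In this gene, which defines the cells, Ctrl replicate 1 lay below and Ctrl replicate 3 above all other libraries. The 7 pan-neuronal markers summed to 2330 to 2490 FPKM in Ctrl and 2286 to 2489 FPKM in Gsk3sKO. In bulk RNA, fewer cells of a type and less RNA per cell cannot be told apart.

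All 10 genes were expressed in Ctrl. Levels are gene totals, the summed FPKM of all transcripts of a gene, a scale that is already per kilobase. A total thus also depends on how reads were divided between transcripts of unlike length. Egr3 was highest in Ctrl at 71.8 ± 13.5 FPKM (SD, n = 3), with Egr1 at 71.2 ± 13.5, Arc at 60.7 ± 17.2 and Junb at 55.0 ± 16.6 FPKM (SD, n = 3). Nr4a1 at 36.7 ± 3.4 and Fos at 27.0 ± 7.68 FPKM (SD, n = 3) formed the middle. Below them lay Dusp1 at 14.9 ± 4.15, Npas4 at 7.18 ± 4.72, Fosb at 6.53 ± 2.44 and Ier2 at 5.74 ± 2.68 FPKM (SD, n = 3). Between neighbours in this order the Ctrl values overlapped except from Junb to Nr4a1 and from Fos to Dusp1. By mean level Egr3 stood at percentile 93.4 of the 12874 gene totals that were tested, Arc at 91.5 and Ier2, the lowest, at 35.04.

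**Figure D1:**
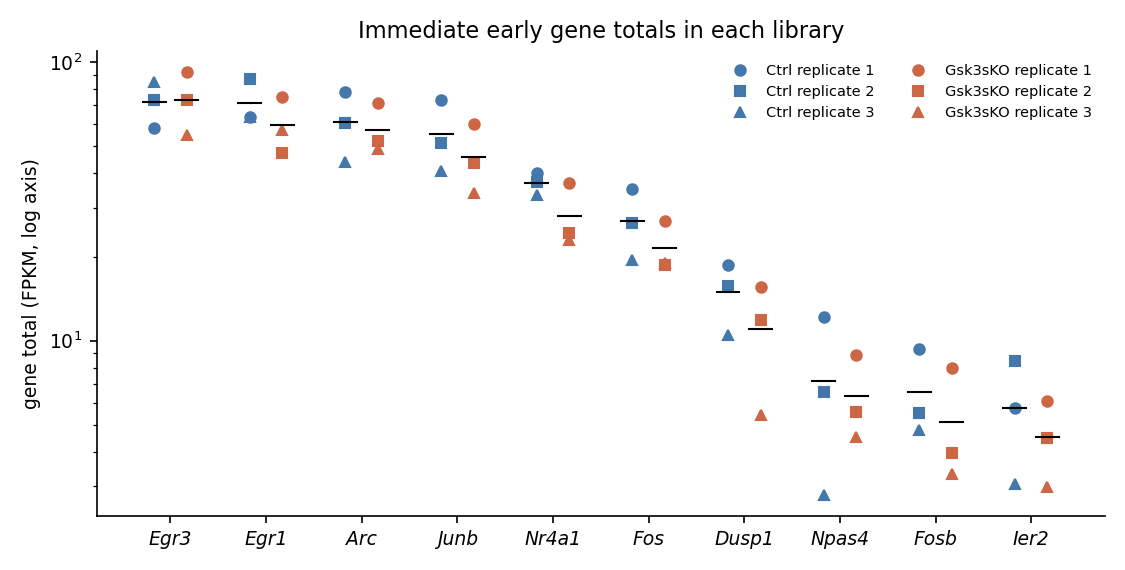
Gene total (FPKM, log axis) of each of the 10 immediate early genes in the 3 Ctrl and 3 Gsk3sKO libraries, ordered by the Ctrl mean, with black bars for group means and symbols for replicate numbers. The Ctrl and Gsk3sKO values overlap for all 10 genes.

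To see how immediate early genes compared between the groups, each gene total was tested with limma on log2(FPKM + 1) among the 12874 gene totals with a mean of at least 1 FPKM. A gene or transcript is called here at an unadjusted p under 0.05, with no correction for the number tested. Of the 10 genes, 0 were called, and the unadjusted limma p lay between 0.0695 and 0.953 and the Benjamini-Hochberg adjusted p between 0.779 and 0.995. Of all gene totals tested, 844 were called, or 6.56%, with 5.2% lower and 1.36% higher in Gsk3sKO, and 6, or 0.0466%, had an adjusted p under 0.05. The Ctrl and Gsk3sKO values overlapped for each of the 10 genes, while 8.3% of all gene totals lay lower and 3.71% higher in Gsk3sKO without overlap. The log2 fold change was below 0 for 9 of the 10 genes, with a median of -0.26, and below 0 for 58.9% of all gene totals, with a median of -0.06. After rescaling of each library to the median ratio, 8 of the 10 and 50.5% of all lay below 0, with medians of -0.20 and -0.0034. The members' median also moved with single libraries, to -0.08 without Gsk3sKO replicate 3 and -0.11 without Ctrl replicate 1 (all gene totals -0.03 and -0.09), and to -0.48 without Ctrl replicate 3 and -0.45 without Gsk3sKO replicate 1 (all gene totals -0.04 and -0.09). The same rescaling turned the split of all called gene totals from 669 lower and 175 higher to 502 lower and 307 higher. The 10 genes share libraries and inducing signals and are not independent counts of a direction.

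**Figure D2:**
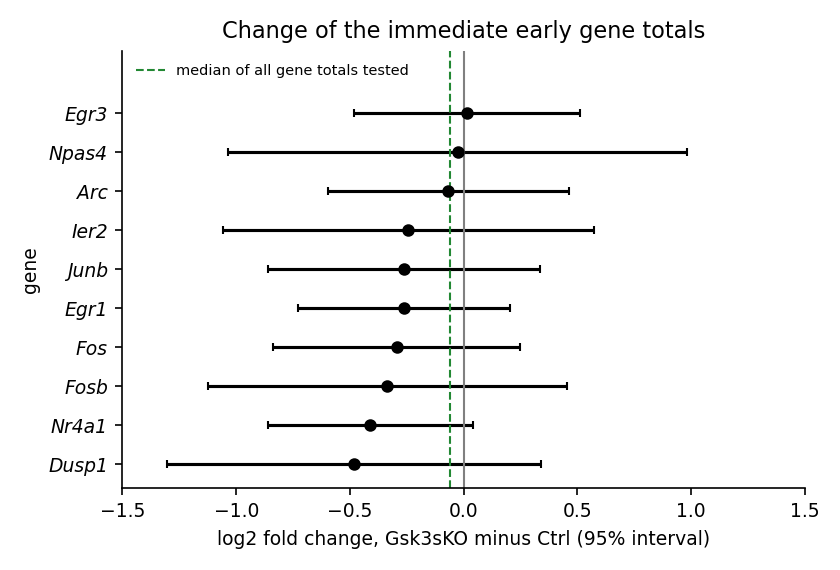
Log2 fold change of each immediate early gene total, Gsk3sKO minus Ctrl, with its 95% confidence interval from limma, a solid line at no change and a dashed line at the median of all gene totals tested. The points lie between -0.48 for Dusp1 and 0.01 for Egr3, and every interval includes no change.

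Among the AP-1 subunits, Fos was at 34.9, 26.5 and 19.5 FPKM in the Ctrl libraries and 26.9, 18.7 and 19.0 FPKM in the Gsk3sKO libraries. This gave a log2 fold change of -0.29 (standard error 0.24, 95% confidence interval -0.84 to 0.25, limma adjusted p = 0.861). Junb, which pairs with Fos proteins, was at 73.2, 51.1 and 40.7 FPKM in the Ctrl libraries and 59.6, 43.3 and 33.8 FPKM in the Gsk3sKO libraries. In both groups replicate 1 was the highest for Junb, and the log2 fold change was -0.26 (standard error 0.26, 95% confidence interval -0.86 to 0.34). Fosb, whose stable short form is known to build up with repeated stimulation, was at 9.32, 5.51 and 4.77 FPKM in the Ctrl libraries and 8.0, 3.95 and 3.32 FPKM in the Gsk3sKO libraries. The difference came to a log2 fold change of -0.34 (standard error 0.34, 95% confidence interval -1.13 to 0.45). For all 3 subunits the highest Gsk3sKO library lay above at least 1 Ctrl library. Without Ctrl replicate 1 the log2 fold changes were -0.10 for Fos, -0.09 for Fosb and -0.04 for Junb, and without Gsk3sKO replicate 1 they were -0.46, -0.66 and -0.47.

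The zinc finger and nuclear receptor genes spread wider in their changes. Egr1 was at 63.2, 86.8 and 63.6 FPKM in the Ctrl libraries and 74.8, 47.2 and 56.7 FPKM in the Gsk3sKO libraries (a log2 fold change of -0.26 with a standard error of 0.20). Egr3, a relative of Egr1, was at 57.8, 73.1 and 84.6 FPKM in the Ctrl libraries and 92.0, 73.0 and 54.7 FPKM in the Gsk3sKO libraries (a log2 fold change of 0.01 with a standard error of 0.22, 95% confidence interval -0.48 to 0.51). It was the only one of the 10 with a value above 0, and it went below 0 without Ctrl replicate 1, Gsk3sKO replicate 1 or Gsk3sKO replicate 2. Nr4a1 came nearest to a call, at 40.0, 37.0 and 33.2 FPKM in the Ctrl libraries and 36.6, 24.3 and 22.9 FPKM in the Gsk3sKO libraries. Gsk3sKO replicate 1 lay among the Ctrl values and the other libraries of the group below them. The Nr4a1 log2 fold change was -0.41 (standard error 0.20, 95% confidence interval -0.86 to 0.04, unadjusted limma p = 0.0695, adjusted p = 0.779, exact permutation p = 0.2). With 1 library left out it ranged from -0.62 without Gsk3sKO replicate 1 (unadjusted limma p of 0.00721, adjusted p of 0.357) to -0.29 without Gsk3sKO replicate 3 (unadjusted limma p of 0.201).

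The Arc total was 78.2, 60.2 and 43.8 FPKM in Ctrl and 70.9, 52.1 and 48.5 FPKM in Gsk3sKO (a log2 fold change of -0.07 with a standard error of 0.23, 95% confidence interval -0.60 to 0.46). It turned to 0.13 without Ctrl replicate 1 and to 0.04 without Gsk3sKO replicate 3. Npas4, which in neurons responds to calcium alone, had the widest spread in Ctrl relative to its mean, with 12.2, 6.54 and 2.81 FPKM against 8.9, 5.54 and 4.53 FPKM in the Gsk3sKO libraries. Its log2 fold change of -0.03 (standard error 0.44, 95% confidence interval -1.03 to 0.98) turned to 0.02 after rescaling of libraries. Dusp1 was listed with 18.6, 15.7 and 10.4 FPKM in Ctrl and 15.6, 11.9 and 5.43 FPKM in Gsk3sKO (a log2 fold change of -0.48 with a standard error of 0.36, 95% confidence interval -1.31 to 0.34). That value was the lowest of the 10 with all 6 libraries, but it was -0.09 without Gsk3sKO replicate 3, the library with the lowest Dusp1 level, and Nr4a1 at -0.29 was then lower. Ier2 was at 5.71, 8.44 and 3.07 FPKM in the Ctrl libraries and 6.1, 4.48 and 3.0 FPKM in the Gsk3sKO libraries (a log2 fold change of -0.24 with a standard error of 0.36). In 2-sided exact permutation tests over the 6 libraries, the p of the 10 gene totals lay between 0.2 and 1.0, where 3 against 3 libraries cannot go below 0.1.

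Most members were high or low in the same libraries of a group. Gsk3sKO replicate 1 had the highest value of its group for 10 of the 10 genes, and Ctrl replicate 1 for 7. The lowest value of the group was that of replicate 3 for 8 genes in Ctrl and for 8 in Gsk3sKO. Their summed level was 393.0, 370.9 and 306.4 FPKM in Ctrl and 399.5, 284.4 and 251.7 FPKM in Gsk3sKO, with means of 356.8 ± 45.0 and 311.9 ± 77.6 FPKM (SD, n = 3). The highest and the lowest of the 6 sums were thus both in Gsk3sKO. Replicate 1 was also the deepest library of each group, at about 45.15 M reads in Ctrl and 41.3 M in Gsk3sKO. The FPKM of all transcripts summed to 608528, 550660 and 414548 in Ctrl and to 422109, 398586 and 385795 in Gsk3sKO. Within each group this sum fell from replicate 1 to replicate 3, as the members' sum did. The part of depth and of the FPKM sums in the members' levels was not tested. The members' median coefficient of variation was 28.4% in Ctrl and 27.9% in Gsk3sKO, and that of all gene totals tested was 19.9% and 22.1%. Over all tested gene totals the deviations of same-numbered libraries had correlations between -0.08 and -0.01 across genes. These give no sign that replicate numbers pair the libraries. Deviations from means of 3 libraries cannot exclude a pairing.

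**Figure D3:**
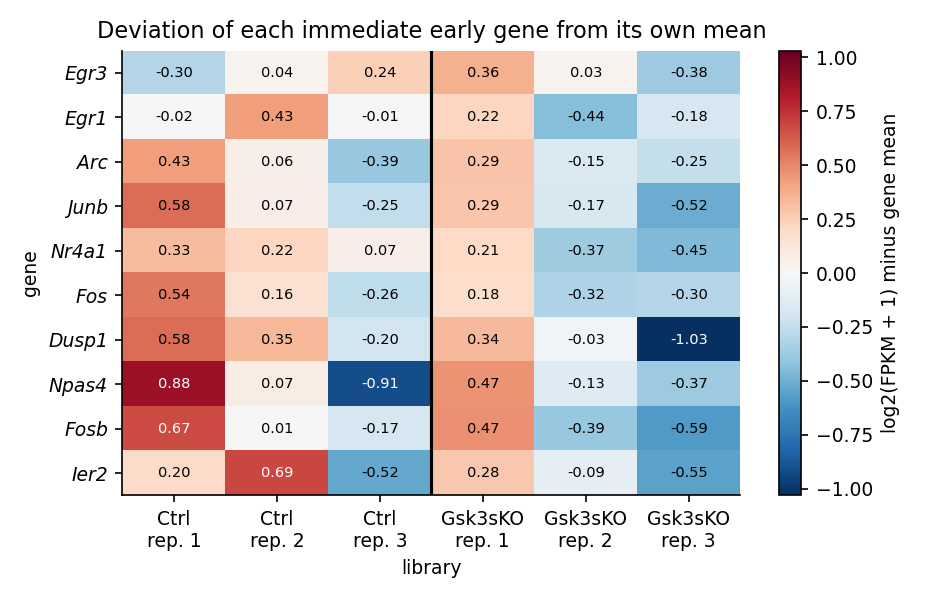
Deviation of each immediate early gene from its own mean over the 6 libraries, in log2(FPKM + 1), with red above and blue below the mean and a line between the groups. Averaged over the 10 genes the deviations are 0.39, 0.21 and -0.24 in Ctrl and 0.31, -0.20 and -0.46 in Gsk3sKO.

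Junb lay nearest to the mean pattern of the 10 genes, with a root mean square difference of 0.10 on the log2 scale over the 6 libraries, followed by Fos at 0.12 and Arc at 0.13. Egr3 at 0.37 and Npas4 at 0.35 lay farthest from it. Each member is part of that mean, so its distance is not comparable with those of other genes. Outside the 10, the nearest gene totals were those of Cryab (0.07), a small heat shock protein gene, Exosc1 (0.08), Gm9776 (0.08), Nupl2 (0.09) and Gm10233 (0.09). Of the other rapid activity-induced genes, Gadd45b came first, at place 107 of 12864, and Ptgs2 next, at place 130. The rest of that list spread widely, with Homer1 at place 4285, Cebpb at 10168 and the last gene at 11765. These are descriptions over 6 libraries, chosen out of 12864 genes.

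Other cell types were looked at next, since glia and endothelial cells also express Fos, Junb, Ier2 and Dusp1. The 8 endothelial markers summed to 20.1, 77.0 and 41.1 FPKM in Ctrl and to 25.0, 27.7 and 68.5 FPKM in Gsk3sKO, so the lowest sum in each group fell in the replicate 1 library, where most members were highest. The D2 receptor list, mostly Penk, summed to 101.3, 123.7 and 322.7 FPKM in Ctrl and to 190.8, 151.0 and 296.4 FPKM in Gsk3sKO. The highest sum in each group was in replicate 3, where most members were lowest. In Ctrl, Drd2, Adora2a, Gpr6 and Drd1 were also highest in replicate 3. In Gsk3sKO only Penk was, at 171.8, 136.0 and 281.3 FPKM. Drd2, Adora2a and Gpr6 were highest in Gsk3sKO replicate 1, as the members were, and Drd1 in Gsk3sKO replicate 2. The excitatory neuron markers summed to 1801, 1576 and 1550 FPKM in Ctrl and to 1640, 1560 and 1354 FPKM in Gsk3sKO, from replicate 1 to replicate 3 in the same order as the members' sums. In Ctrl this order came from Nrgn, at 920.1, 645.4 and 550.1 FPKM. No other marker of the list fell from replicate 1 to replicate 3 in Ctrl, and Camk2a, at 510.6, 522.7 and 593.6 FPKM, and Tbr1 rose. The part of these lists in the spread of the members was not tested. Of the excitatory neuron markers 1 of 6, Tbr1, was called lower, and among the inhibitory neuron markers (989.6 to 1318 and 934.6 to 1029 FPKM) 0 of 6 were called. Of the astrocyte markers (175.7 to 220.3 and 182.5 to 228.3 FPKM) 0 of 8 and of the endothelial markers 0 of 8 were called. Of the oligodendrocyte markers (122.6 to 187.5 and 130.2 to 169.8 FPKM) 3 of 7 tested were called lower, Mog, Cnp and Mag, and Mog was listed at 0 in 2 Gsk3sKO libraries. Of the microglia markers (35.7 to 49.3 and 28.9 to 38.4 FPKM) 2 of 7 tested were called lower, C1qa and C1qb, while P2ry12 had a log2 fold change of 0.72 and was not called. Beside these counts stand the 6.56% of all gene totals called in either direction and the 5.2% called lower. With 1 library left out Mog remained called, and Tbr1, Cnp, Mag, C1qa and C1qb each lost the call without at least 1 library. Cldn5, Aqp4 and P2ry12, which define endothelial cells, astrocytes and microglia, were above 0 in all 6 libraries.

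At the level of transcripts, 16 of the 23 listed transcripts had a mean of at least 1 FPKM, 3 were at 0 in all libraries, and 1 of the 16 was called, against 5.56% of all 21584 transcripts tested (3.75% lower and 1.81% higher in Gsk3sKO, 0.0% at an adjusted p under 0.05). That transcript was Arc ENSMUST00000110009, listed at 1.88, 0.851 and 0.646 FPKM in the Ctrl libraries and 19.6, 9.02 and 7.07 FPKM in the Gsk3sKO libraries. Every Gsk3sKO library lay above every Ctrl library, as for 4.28% of all transcripts tested (6.96% lay lower without overlap), and it was the only one of the 16 without overlap. Its mean rose from 1.13 ± 0.66 to 11.9 ± 6.74 FPKM (SD, n = 3), a log2 fold change of 2.52 (standard error 0.45, unadjusted limma p = 0.00119, adjusted p = 0.367, exact permutation p = 0.1). The main transcript, ENSMUST00000023268, was at 76.3, 59.4 and 43.1 FPKM in the Ctrl libraries and 51.3, 43.1 and 41.4 FPKM in the Gsk3sKO libraries (a log2 fold change of -0.36 with a standard error of 0.23, unadjusted limma p = 0.167, exact permutation p = 0.2). With 1 library left out this ranged from -0.57 without Ctrl replicate 3 (unadjusted limma p of 0.0283) to -0.16 without Ctrl replicate 1 (0.449). As a share of the Arc total, ENSMUST00000110009 made up 2.4%, 1.41% and 1.47% in Ctrl and 27.6%, 17.3% and 14.6% in Gsk3sKO, with means of 1.76% ± 0.55 and 19.8% ± 6.88 (SD, n = 3). The shares did not overlap (exact permutation p = 0.1, 2-sided, which is as low as 3 against 3 libraries can go).

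**Figure D4:**
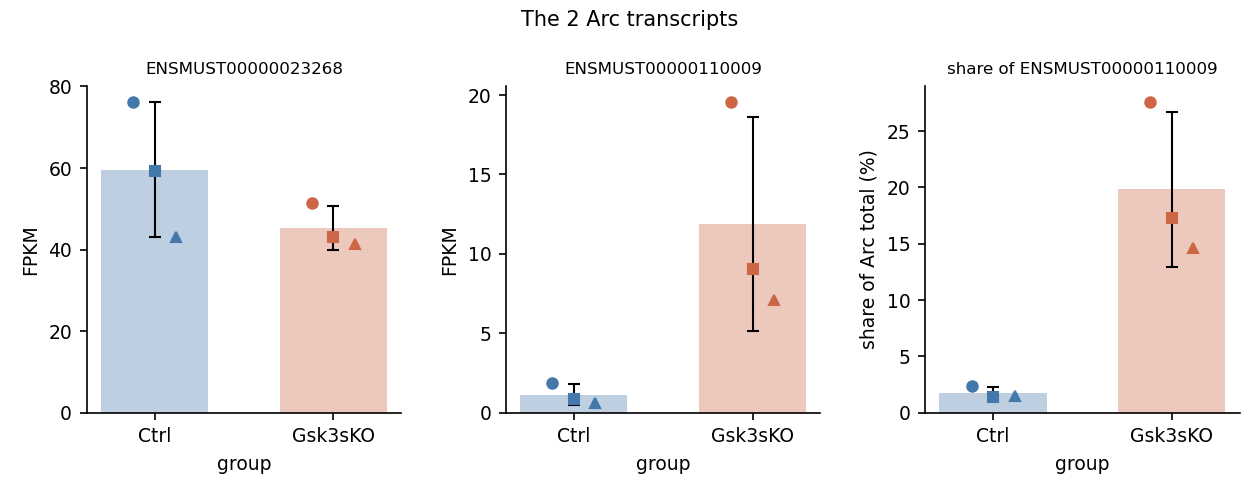
FPKM of the 2 Arc transcripts and the share of ENSMUST00000110009 in the Arc total (%), as mean (bar), SD (line) and single libraries (points, with circle, square and triangle for replicates 1 to 3) in Ctrl and Gsk3sKO. The share is at most 2.4% in Ctrl and at least 14.6% in Gsk3sKO.

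Both Arc transcripts lie on the minus strand of chromosome 15 (GRCm38, GENCODE M21), from 74669083 to 74672568 and from 74669083 to 74672570, and have 3 exons. Their coding sequence, from 74671185 to 74672372, is the same and lies whole in exon 1, so exons 2 and 3 are 3' untranslated. Exon 2 runs from 74670180 to 74670319 in the main transcript and to 74670316 in ENSMUST00000110009. The main transcript therefore holds 3 more bases, CAG, at the upstream end of exon 2, where splicing joins it to exon 1, while ENSMUST00000110009 starts 2 bases earlier. Their lengths are 3055 and 3054 bases, and everything else is shared. The division of reads between them thus rests on reads across 1 junction or at the first bases, and is an estimate of the assembler. The introns in the 3' untranslated region of Arc are known to send its RNA to nonsense-mediated decay after translation. Both transcripts encode the same protein, and the Arc total had a log2 fold change of -0.07.

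In Fosb, the files separate the full-length form from the short form known as ΔFosB. ENSMUST00000003640 (chromosome 7, 19302696 to 19310051, minus strand, 4 exons) has 338 codons, and in ENSMUST00000208446 (19304797 to 19309600, 5 exons) an intron of 140 bases, from 19305007 to 19305146, is removed from exon 4, which leaves 237 codons. The full-length form was at 1.52, 5.13 and 4.43 FPKM in the Ctrl libraries and 1.57, 3.14 and 3.06 FPKM in the Gsk3sKO libraries (a log2 fold change of -0.32 with a standard error of 0.46). The short form was listed at 5.82, 0 and 0 FPKM in the Ctrl libraries and 5.2, 0.608 and 0 FPKM in the Gsk3sKO libraries. It made up 62.4% of the Fosb total in Ctrl replicate 1 and 65.0% in Gsk3sKO replicate 1, and at most 15.4% elsewhere. The short form had a log2 fold change of 0.18 with a standard error of 1.04. The libraries with the highest Fosb total were those with most of the short form, in both groups. The short form is 1090 bases long and the full-length form 3782, so reads given to the short form raise the FPKM total more. The total and the share of the short form are therefore not independent, and the part of this in the totals was not tested.

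The division of Egr1 and of Dusp1 between transcripts differed widely among libraries of both groups. Egr1 ENSMUST00000165033 was listed at 0 in Ctrl replicate 1 and Gsk3sKO replicate 2, and its share of the Egr1 total was 80.5% and 45.2% in the other Ctrl libraries and 60.2% and 68.3% in the other Gsk3sKO libraries. Its mean share was 41.9% ± 40.4 in Ctrl and 42.9% ± 37.3 in Gsk3sKO (SD, n = 3). It is 3036 bases long and ENSMUST00000064795 is 4484, so the Egr1 total also depends on this division. Dusp1 ENSMUST00000126178, a transcript with a retained intron, made up 74.4% of the Dusp1 total in Ctrl replicate 2 and 54.3% in Gsk3sKO replicate 1, and at most 1.31% in each other library. The main Fos transcript, ENSMUST00000021674 (chromosome 12, 85473890 to 85477273), held 85.7% ± 8.81 of the Fos total in Ctrl and 84.4% ± 14.1 in Gsk3sKO (SD, n = 3). In 2-sided exact permutation tests, the shares of the transcripts of Fos, Fosb, Egr1 and Dusp1 gave p between 0.5 and 1.0. Of the other genes with 1 listed transcript, Junb lies at 84976910 to 84978718 and Ier2 at 84661331 to 84662852 on chromosome 8, Nr4a1 at 101266846 to 101274795 on chromosome 15, Egr3 at 70077203 to 70079955 on chromosome 14 and Npas4 at 4984355 to 4990316 on chromosome 19.

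The rest of the activity response was followed in lists of genes that are induced with the members or lie upstream of them. Of 49 other rapid activity-induced genes, 41 were tested and 4 were called, or 9.76% where 6.56% of all gene totals were called. All 4 were lower in Gsk3sKO, as were 5.2% of all gene totals. The median log2 fold change of the list was -0.12. Cebpb, a bZIP factor gene, fell from values of 2.51, 2.56 and 1.52 FPKM in the Ctrl libraries to values of 0.254, 0.881 and 0.35 FPKM in the Gsk3sKO libraries (a log2 fold change of -1.10 with a standard error of 0.33, unadjusted limma p = 0.0095, adjusted p = 0.651, exact permutation p = 0.1). Per1, a clock gene that also responds to CREB, fell from values of 25.2, 18.9 and 24.6 FPKM to values of 16.3, 15.6 and 14.2 FPKM (a log2 fold change of -0.54 with a standard error of 0.17, unadjusted limma p = 0.0119, adjusted p = 0.671, exact permutation p = 0.1). Nr4a3, a relative of Nr4a1, fell from values of 14.7, 17.3 and 16.1 FPKM to values of 11.9, 11.9 and 8.88 FPKM (a log2 fold change of -0.53 with a standard error of 0.18, unadjusted limma p = 0.0185, adjusted p = 0.688, exact permutation p = 0.1), and lost its call without Ctrl replicate 2 (unadjusted limma p = 0.0706). The groups did not overlap for these 3 genes.

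Jund, the AP-1 subunit of resting cells, was called at a log2 fold change of -0.69 (standard error 0.26, unadjusted limma p = 0.0311, adjusted p = 0.738, exact permutation p = 0.2) although Ctrl replicate 3, at 23.2 FPKM, lay below Gsk3sKO replicate 2, at 24.0 FPKM. Jund counts among the 4 calls of the list, although resting cells also express it. Its unadjusted limma p rose as high as 0.109 with 1 library left out, and the call was lost without Ctrl replicate 1, Ctrl replicate 2, Gsk3sKO replicate 1 or Gsk3sKO replicate 3, and also with all libraries after median ratio rescaling (unadjusted limma p of 0.0573), without a filter (0.0538) and without moderation of variances (0.108). Leaving out Ctrl replicate 2 brought the count of called genes in this list from 4 to 2. The most abundant genes of the list were Plk2, Homer1 and Bhlhe40. Plk2, a kinase that weakens synapses after strong activity, was at 117.5, 121.3 and 131.1 FPKM in the Ctrl libraries and 125.5, 120.6 and 109.1 FPKM in the Gsk3sKO libraries, and none of the 3 was called. Atf3, Fosl1, Zfp36, Maff, Pim1, Dusp2, Amigo3 and Apold1 had a mean below 1 FPKM and were not tested.

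Of 19 later effector genes, 16 were tested and 0 called in limma, with a median log2 fold change of 0.06. Bdnf, the growth factor gene induced by Npas4 and CREB, was at 8.6, 10.5 and 7.5 FPKM in the Ctrl libraries and 11.7, 8.23 and 7.78 FPKM in the Gsk3sKO libraries. Sst, Penk and Scg2 were the most abundant of them. All 37 genes for inducing kinases and transcription factors were tested, and 3 were called higher and 1 lower, or 10.8% where 6.56% of all gene totals were called, with a median log2 fold change of 0.01. Ppp3cb, a catalytic subunit of calcineurin, was at 50.9, 42.9 and 91.4 FPKM in the Ctrl libraries and 98.8, 99.8 and 101.5 FPKM in the Gsk3sKO libraries (a log2 fold change of 0.76 with a standard error of 0.25, unadjusted limma p = 0.0158, adjusted p = 0.688, exact permutation p = 0.1). Mef2c, a calcium-responsive factor gene, rose from values of 152.3, 183.4 and 180.0 FPKM to values of 214.1, 215.7 and 216.1 FPKM (a log2 fold change of 0.33 with a standard error of 0.13, unadjusted limma p = 0.032, adjusted p = 0.741, exact permutation p = 0.1). The most abundant of this list were Ppp3ca and Ppp3r1, further subunits of calcineurin, and Mef2c. Atf2 was called higher (a log2 fold change of 0.43 with a standard error of 0.18) and Atf1, a relative of CREB, lower (a log2 fold change of -0.77 with a standard error of 0.32). Each of these 4 calls was lost without 1 or more of the libraries, and the count fell to 1 without Gsk3sKO replicate 2 and to 2 without Ctrl replicate 2, Ctrl replicate 3 or Gsk3sKO replicate 3.

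**Figure D5:**
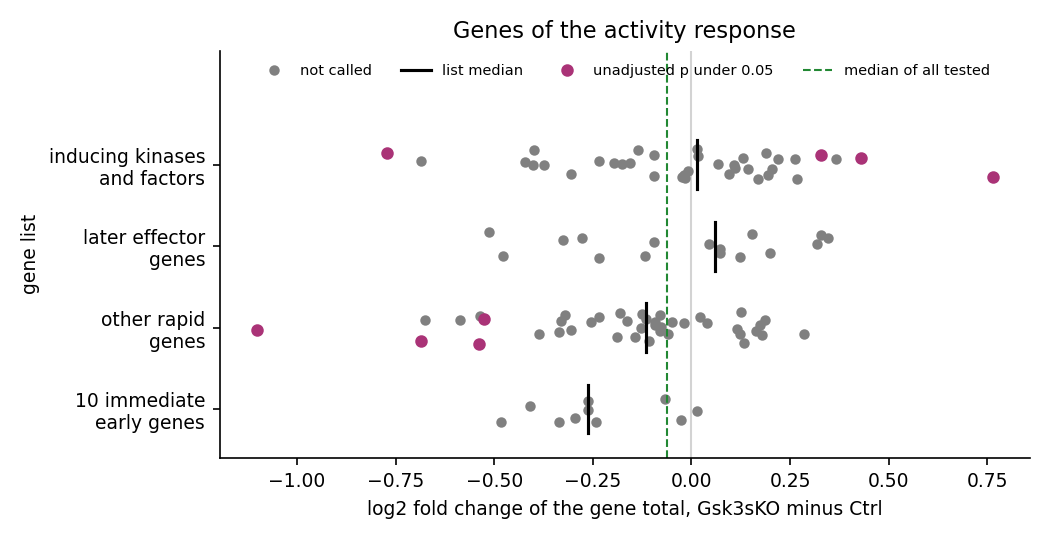
Log2 fold change of each tested gene total, Gsk3sKO minus Ctrl, in the 10 immediate early genes and 3 further lists, with called genes in purple, list medians as black bars and the median of all gene totals tested as a dashed line. The list medians are -0.26, -0.12, 0.06 and 0.01 from the bottom row up, and the 4 called rapid genes all lie below 0.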

How the data were processed

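Ribosome-associated RNA was taken from mPFC D2 cells by RiboTag immunoprecipitation and sequenced from libraries of total RNA made with a stranded kit, 3 for Ctrl and 3 for Gsk3sKO. The submitters' processing notes list HISAT2 2.1.0, SAMtools 1.9, StringTie 1.3.4d and GRCm38. Their settings count as not given in the sources used here. The authors deposited FPKM values per transcript and library, with no read counts. The fold, p-value and q-value of their own comparison, also deposited by the authors, were not used. Sources do not say whether libraries came from separate mice or pools, so p-values speak only of how far these libraries lie apart, which may be technical. FPKM depends on the other RNAs of a library, and a fold change on log2(FPKM + 1) understates the change of low genes.

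Groups and replicate numbers came from the sample titles. FPKM were summed by gene identifier. Gene totals and transcripts with a mean of at least 1 FPKM entered limma 3.58.1 under R 4.3.3 (eBayes with a trend, no covariates, 2-sided, Benjamini-Hochberg adjustment over everything tested), and the model was tested on simulated data. Positions and lengths came from GENCODE M21 for 114332 of the 115220 transcripts. Depth was estimated from FPKM times length in genes with 1 listed transcript above 800 bases. Alternatives were a pseudocount of 0.1, no filter, a filter at 5 FPKM, median ratio rescaling, no moderation of variances, a replicate block and leaving out each library. Python 3.11.15, scipy 1.17.1, pandas 2.3.3 and matplotlib 3.10.9 were used for tables, permutation tests and figures.

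The members and gene lists were chosen with earlier results of these data known. Named genes are the 10 members with their transcripts above the filter, up to 4 called genes of largest change and the 3 most abundant from each list, the 5 nearest patterns and Gsk3b. The most abundant cell type markers enter only through the sums of their lists, apart from those of which single values are given. Bdnf, Gadd45b, Ptgs2, Cldn5, Aqp4, P2ry12 and the 8 rapid genes below the filter were named in addition, after their values were seen. The lists of neuron, excitatory neuron, inhibitory neuron, D2 receptor neuron, astrocyte, oligodendrocyte, microglia and endothelial markers were written by hand.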

Additional observations from a re-analysis of the deposited data

How the results depend on the processing

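The count of called members stayed at 0 in limma under each setting except without Gsk3sKO replicate 1, where it was 1 (range 0 to 1 with 1 library left out). The log2 fold change was below 0 for 7 to 10 of the 10 members. The number of called gene totals lay between 564 and 1121 over the pseudocount, filter, rescaling, moderation and block settings and between 573 and 1178 with 1 library left out. Called transcripts numbered 1917 without a filter and 590 at a mean of at least 5 FPKM, beside 1200. The Arc transcript ENSMUST00000110009 was called under every setting, with log2 fold changes from 2.13 to 2.80 with 1 library left out and 3.28 with a pseudocount of 0.1 (adjusted limma p between 0.276 and 0.789). Cebpb and Per1 were called under every setting that tested them. With 1 library left out the count of called other rapid genes lay between 2 and 5. Over all settings 0 to 2 later effector genes and 1 to 4 inducing kinases and factors were called.

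Signs turned for small changes. Npas4, total and transcript, went to 0.024 after median ratio rescaling. With 1 library left out the log2 fold change ranged from -0.28 to 0.13 for the Arc total, -0.17 to 0.21 for Egr3, -0.49 to 0.41 for Npas4 and -0.57 to 0.041 for Ier2. It kept its sign but moved by over 1.5 times for Fos (-0.50 to -0.10), Fosb (-0.66 to -0.09), Junb (-0.47 to -0.04), Egr1 (-0.44 to -0.11) and Dusp1 (-0.77 to -0.09). The log2 fold change of Nr4a1 also kept its sign (-0.62 to -0.29). Among transcripts it ranged from -0.84 to 0.26 for Fos ENSMUST00000140525, -0.90 to 0.090 for Dusp1 ENSMUST00000025025, -1.33 to 0.92 for Dusp1 ENSMUST00000126178, -0.66 to 0.26 for Egr1 ENSMUST00000064795, -1.91 to 1.74 for Egr1 ENSMUST00000165033 and -0.58 to 1.11 for Fosb ENSMUST00000208446. The cause was not tested.

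Replicate numbers are shared by the groups, and the sample titles give no pairing beyond the number. With the replicate block 821 gene totals and 0 members were called, the smallest unadjusted limma p of a member was 0.0503, and the count of called other rapid genes was 5. The correlations of same-numbered libraries, -0.03, -0.01 and -0.08 across genes, were in no case the highest of a library with the other group. With 3 libraries a group, the members' 95% intervals in the report give the precision.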
